A study of Homo sapiens with 4 samples.

Results

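Claudins are a family of tetraspan membrane proteins of the tight junction, and the 10 members described here are CLDN1, CLDN2, CLDN3, CLDN4, CLDN7, CLDN10, CLDN11, CLDN12, CLDN14 and CLDN16. A probe was taken as a member where its gene name on the array equals one of these symbols and it is not a control, which gave 14 probes for the 10 genes, out of 34127 probes for 25992 gene names on the array. All 10 genes had a probe well above background on at least 1 array, by the flag that the scanner software sets where a spot is clearly brighter than its local background. Among all genes with a value on every array, 17928 of 25667 were so. The list does not hold claudins that were so on no array, such as CLDN5 and CLDN8, and the 10 of 10 is therefore no result about claudins. The samples were human proximal tubular cells (HPTCs) of a pair of immortalised lines, HK-2, made with papillomavirus oncogenes (E6 and E7), and RPTEC/TERT1, made with the catalytic subunit of telomerase. Both lines were grown in normal glucose, kept without serum and supplements for 24 h and then given IL-1β (10 ng/mL) together with the SGLT2 inhibitor empagliflozin (Empa, 500 nM) for another 24 h. The labels assign 2 arrays to HK-2 and another 2 to RPTEC/TERT1, which the study describes as biological duplicates, and all 4 cultures had both agents. Unstimulated cells and cells with IL-1β but no Empa were not analysed here, and no effect of either agent on a claudin can be given.

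Claudins join the membranes of neighbouring epithelial cells into the strands of the tight junction and decide which ions and how much water pass between the cells. Some members form pores, of which CLDN2 (for cations and water) and CLDN10 (for cations or anions, depending on the isoform) are characteristic of leaky nephron segments, whereas CLDN1, CLDN3, CLDN4 and CLDN7 are known mainly from tighter epithelia. CLDN14 and CLDN16 are known from the thick ascending limb, where they act on the paracellular passage of calcium and magnesium. In the proximal tubule the junction is leaky, and CLDN2 is its best known claudin.

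The sequence upstream of the genes is shown for 4 members that show both orders of the arrays, CLDN2, CLDN3 and CLDN4, with the same arrays bright, and CLDN11, with the opposite arrays bright. Each is the 250 bases before the outermost RefSeq start of the gene, on GRCh38.p14, 5′ to 3′ on the strand of the gene. CLDN2 lies at chrX:106899914-106900163 (plus strand), CLDN3 at chr7:73770271-73770520 (minus strand), CLDN4 at chr7:73830746-73830995 (plus strand) and CLDN11 at chr3:170418618-170418867 (plus strand). Capitals mark a match on either strand to an AP-1 motif (TGANTCA) or to a GC box (GGGCGG), and no marked matches overlap.
CLDN2: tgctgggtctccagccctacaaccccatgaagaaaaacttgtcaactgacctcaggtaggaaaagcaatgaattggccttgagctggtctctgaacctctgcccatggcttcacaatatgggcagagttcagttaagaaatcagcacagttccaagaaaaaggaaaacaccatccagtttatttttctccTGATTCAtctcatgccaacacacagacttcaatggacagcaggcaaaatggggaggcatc
CLDN3: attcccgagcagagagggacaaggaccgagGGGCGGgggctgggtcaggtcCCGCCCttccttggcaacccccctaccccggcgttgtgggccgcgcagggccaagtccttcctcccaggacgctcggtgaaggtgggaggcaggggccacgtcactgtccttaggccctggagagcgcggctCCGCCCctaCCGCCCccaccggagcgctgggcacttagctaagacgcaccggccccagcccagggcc
CLDN4: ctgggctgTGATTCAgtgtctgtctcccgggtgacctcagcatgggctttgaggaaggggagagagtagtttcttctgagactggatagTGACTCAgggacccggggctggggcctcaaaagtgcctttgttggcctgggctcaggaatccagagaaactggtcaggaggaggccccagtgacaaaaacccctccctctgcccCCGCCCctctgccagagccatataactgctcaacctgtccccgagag
CLDN11: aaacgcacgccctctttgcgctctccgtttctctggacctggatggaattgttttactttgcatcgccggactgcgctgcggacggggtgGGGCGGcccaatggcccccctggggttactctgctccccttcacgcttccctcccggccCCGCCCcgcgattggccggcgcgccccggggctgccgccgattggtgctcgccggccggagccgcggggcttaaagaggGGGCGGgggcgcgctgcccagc
The window of CLDN2 held 1 AP-1 match and no GC box at a GC content of 46.0%, and that of CLDN4 held 2 AP-1 matches and 1 GC box at 58.8%. The windows of CLDN3 and CLDN11 held 4 and 3 GC boxes at 71.6% and 71.2%, and neither held an AP-1 match.

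Over the 17 RefSeq windows of the 10 claudins, 3 held an AP-1 match (CLDN2, CLDN4 and CLDN16), against 6.57% of 35116 windows of the same length over all genes. GC boxes were in 8 of the 17 and in 42.6% of all windows. The E-box CACCTG, the letters that repressors of epithelial genes such as SNAI1 and ZEB1 bind, was in 2 of the 17 (CLDN7 with 4 matches in 1 of its windows, and CLDN14) and in 17.5% of all. No claudin window held the TATA motif TATAAA, which was in 10.7% of all windows. Both strands were searched, and a match describes letters, not a bound site.

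The level of a probe is the log2 of its processed signal over the 75th percentile of its array, so that 0 is the brightness of that percentile, and a common floor stands at -5.37. That percentile was between 393 and 748 units on the 4 arrays, each with 43118 spots that are not controls, and between 59.2% and 64.9% of the spots were well above background. No claudin spot was saturated, and the median SD of repeated spots of a probe within an array lay between 0.083 and 0.14 on the log2 scale. Before any claudin is described, the arrays have to be compared, since they did not pair by their labels. Across 17928 genes, HK-2 replicate 1 had a Pearson correlation of 0.865 with HK-2 replicate 2 and of 0.980 with RPTEC/TERT1 replicate 2, whereas HK-2 replicate 2 reached 0.976 with RPTEC/TERT1 replicate 1. Genes are not independent replicates, and these values describe the arrays. Whether arrays carry each other's labels was not tested, and every difference between HK-2 and RPTEC/TERT1 below holds for the arrays as labelled. The arrays of replicate 1 shared a scan date and those of replicate 2 another, and number and date cannot be told apart. All values are therefore given per array under its label, and wherever arrays are set side by side the order is HK-2 replicates 1 and 2, then RPTEC/TERT1 replicates 1 and 2.

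The labelled cell type was set against markers. Of 14 proximal tubule markers 10, 9, 7 and 10 were well above background on the arrays in that order, and CUBN, SLC22A6 and HNF4A were so on none. Their summed signals were 28.4, 7.41, 11.6 and 22.7 times the 75th percentile. Of 7 epithelial markers 7, 6, 6 and 7 were well above background, with sums of 113, 37.4, 36.0 and 128, and CDH1, the adherens junction cadherin of epithelia, was the marker that failed on RPTEC/TERT1 replicate 1 and HK-2 replicate 2. Of 5 fibroblast markers 0, 2, 2 and 0 were well above background (DCN and LUM), with sums of 0.129, 1.89, 1.43 and 0.125, and PDGFRA, PDGFRB and TCF21 were so on none. Thick ascending limb markers reached 3, 1, 1 and 3 of 4, with sums of 0.894, 0.219, 0.219 and 1.17. For 9 markers of the distal tubule and collecting duct the counts were 1, 1, 2 and 2 (sums of 0.680, 0.622, 0.631 and 0.851), for 4 endothelial markers 2, 1, 1 and 1 (sums of 0.395, 0.267, 0.196 and 0.254) and for 4 leukocyte markers 2, 2, 3 and 2 (sums of 0.250, 0.332, 0.364 and 0.214). Hence the proximal tubule, epithelial and thick ascending limb sums were high on the same arrays as most of the claudins below, and the fibroblast sum on the opposite arrays. Their part in the claudin levels was not tested, and in RNA of whole cultures fewer cells of a kind and less RNA per cell cannot be told apart.

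Most of the listed claudins ranged widely over the 4 arrays, and the bright arrays did not share a label. CLDN2, CLDN3, CLDN4, CLDN10, CLDN14 and CLDN16 were bright on RPTEC/TERT1 replicate 2 and HK-2 replicate 1 and dimmer on the other arrays. For their brightest probe, the arrays of 1 label differed by 7.43-fold or more. CLDN11 was bright on exactly those other arrays and was lost in the background where CLDN2 was bright. CLDN1 and CLDN12 were well above background on every array, with ranges of 1.23 and 0.76, and CLDN7 lay near the floor and was well above background on 2 arrays.

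**Figure D1:**
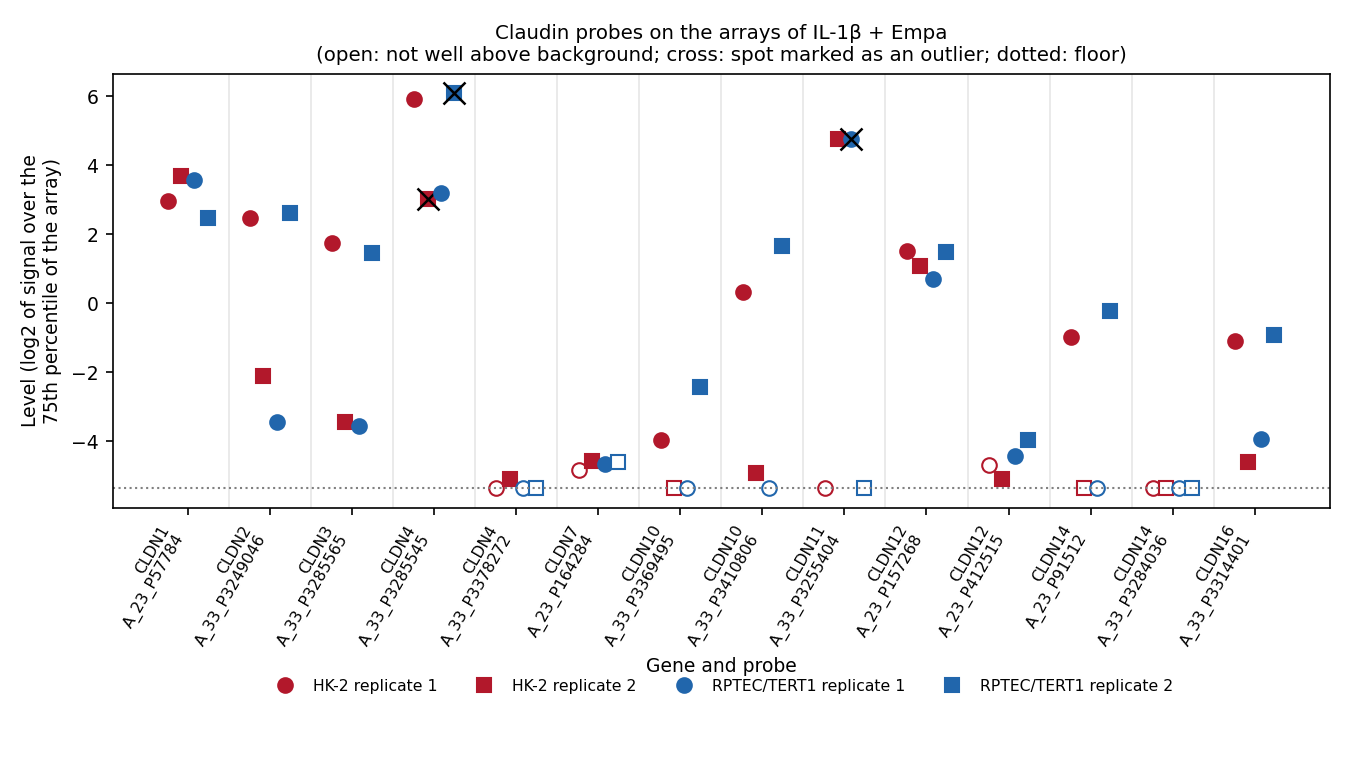
Level of each of the 14 claudin probes on each array (y axis, log2 of the processed signal over the 75th percentile of the array), with HK-2 in red, RPTEC/TERT1 in blue, replicate 1 as circles and replicate 2 as squares. Open symbols were not well above background, crosses mark spots flagged as outliers and the dotted line is the floor of -5.37. The red circle and blue square lie together at the top for CLDN2, CLDN3 and CLDN4 and at the floor for CLDN11.

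Among the claudins of tight epithelia, CLDN1, which seals the epidermis, was read by probe A_23_P57784 (chr3:190024001-190024060, GRCh37, minus strand). Its processed signals were 3040, 9660, 5777 and 2355, and its levels 2.95, 3.69, 3.56 and 2.46. The signal was higher on RPTEC/TERT1 replicate 1 and HK-2 replicate 2 than on the others, and the arrays of the labelled lines overlapped. Its range over the arrays, the highest minus the lowest level, was 1.23.

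CLDN3 was read by probe A_33_P3285565 (chr7:73183327-73183386, minus strand), with processed signals of 1320, 68.8, 41.4 and 1182. All 4 were well above background, and the levels were 1.75, -3.44, -3.56 and 1.46. HK-2 replicate 1 was 36.5-fold brighter than HK-2 replicate 2, and RPTEC/TERT1 replicate 2 was 32.5-fold brighter than RPTEC/TERT1 replicate 1, once each array was scaled to its 75th percentile. Across the labels, HK-2 replicate 1 differed from RPTEC/TERT1 replicate 2 by only 1.22-fold and HK-2 replicate 2 from RPTEC/TERT1 replicate 1 by 1.09-fold.

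CLDN4 is, like CLDN3, a receptor of a clostridial enterotoxin. Probe A_33_P3285545 (chr7:73246907-73246966, plus strand) gave 23767, 6081, 4443 and 28971, with levels of 5.92, 3.02, 3.19 and 6.08. The spots on both arrays of replicate 2 were marked as outliers and were left out of the fit, so that CLDN4 was not tested between the lines. With them, the replicates differed by 7.43-fold within HK-2 and by 7.43-fold within RPTEC/TERT1, in opposite order. A further probe, A_33_P3378272 (chr7:73244259-73244318), which carries another transcript name, gave 4.72, 22.0, 7.90 and 0.333 and was well above background on HK-2 replicate 2 alone, so that the probes of CLDN4 disagreed.

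CLDN7, known from distal segments and collecting duct, was read by A_23_P164284 (chr17:7163822-7163986, minus strand). Signals were 13.8, 31.6, 19.4 and 17.7, and the spot passed the background flag on RPTEC/TERT1 replicate 1 and HK-2 replicate 2 alone. The levels, -4.84, -4.56, -4.66 and -4.60, spanned 0.27 close to the floor, and no order of the arrays is read from them.

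Of the pore-forming members, CLDN2 had a range of 6.03, the widest among the 8 fitted with the mean of probes, although CLDN10 reached 7.03 by its brightest probe. Probe A_33_P3249046 (chrX:106174032-106174091, plus strand) gave 2190, 171, 45.2 and 2594, all well above background, with levels of 2.48, -2.12, -3.43 and 2.60. HK-2 replicate 1 was 24.3-fold brighter than HK-2 replicate 2, and RPTEC/TERT1 replicate 2 was 65.4-fold brighter than RPTEC/TERT1 replicate 1. The bright arrays differed by 1.09-fold and the dim ones by 2.48-fold, so that a residual difference between the dim arrays was seen here that CLDN3 did not have.

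CLDN10 was read by a pair of probes on chromosome 13. Probe A_33_P3410806 (chr13:96231847-96231906, plus strand) gave 489, 24.7, 7.59 and 1348 and was well above background on all arrays but RPTEC/TERT1 replicate 1. HK-2 replicate 1 was 37.7-fold brighter than HK-2 replicate 2, and RPTEC/TERT1 replicate 2 was at least 130-fold brighter than RPTEC/TERT1 replicate 1, where the bound takes the higher of the floor and the dim spot itself. The dimmer probe, A_33_P3369495 (chr13:96213122-96213181), gave 25.3, 8.74, -0.60 and 78.7 and passed the background flag on the bright arrays of the other probe alone, with bounds of at least 2.66-fold and at least 7.60-fold. Both probes put RPTEC/TERT1 replicate 2 above HK-2 replicate 1, by 2.53-fold and 2.86-fold.

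The members known from the thick ascending limb followed the same order of arrays. CLDN14 (A_23_P91512, chr21:37832955-37833014, minus strand) gave 200, 7.48, 6.03 and 369 and passed the background flag on 2 arrays. HK-2 replicate 1 was at least 21.1-fold brighter than HK-2 replicate 2, and RPTEC/TERT1 replicate 2 at least 35.6-fold brighter than RPTEC/TERT1 replicate 1. Its other probe, A_33_P3284036 (chr21:37898638-37898697), was not well above background on any array. CLDN16 (A_33_P3314401, chr3:190128216-190128275, plus strand) was well above background on all 4, at 184, 31.0, 32.1 and 224, with levels of -1.10, -4.59, -3.93 and -0.94. The replicates of CLDN16 differed by 11.3-fold within HK-2 and by 7.94-fold within RPTEC/TERT1. Of the thick ascending limb markers, SLC12A1, the salt transporter of that segment that loop diuretics block, stood at -0.51, -5.37, -5.37 and -0.10 on the same arrays and KCNJ1, a potassium channel, at -4.46, -5.37, -5.37 and -4.19. UMOD, the urinary protein uromodulin, did not have this order, at -3.04, -2.77, -2.77 and -2.70, and CASR was well above background on none.

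CLDN11, which forms the tight junctions of myelin and of Sertoli cells, went the other way. Probe A_33_P3255404 (chr3:170151824-170151883, plus strand) gave 3.05, 20080, 13083 and 3.33, with a level of 4.75 on HK-2 replicate 2 and of 4.74 on RPTEC/TERT1 replicate 1. Both other arrays were not well above background. HK-2 replicate 2 was at least 1112-fold brighter than HK-2 replicate 1, and RPTEC/TERT1 replicate 1 at least 1109-fold brighter than RPTEC/TERT1 replicate 2, although the spot on RPTEC/TERT1 replicate 1 was marked as an outlier. For that reason CLDN11 was not tested between the lines either.

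CLDN12, which lacks the PDZ-binding end that most claudins share, was measured by A_23_P157268 (chr7:90044941-90045000, plus strand) at 1124, 1583, 789 and 1186, with levels of 1.52, 1.08, 0.69 and 1.47. Its other probe, A_23_P412515 (chr7:90042478-90042537), gave 15.2, 21.7, 22.8 and 27.2 and was well above background on all arrays but HK-2 replicate 1. The order of the arrays differed between the probes, and their mean spanned 0.76.

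The comparison that the labels imply is HK-2 against RPTEC/TERT1 under IL-1β and Empa, which asks whether the lines differ in a gene under the same stimulation. With limma and Benjamini-Hochberg adjustment, 0 of the 8 claudins tested were called, and 0 of all 16669 genes tested were called, or 0%. At an unadjusted p under 0.05 there were 0 claudins and 24 genes, or 0.144% of those tested. CLDN2 had a mean level of 0.18 ± 3.25 in HK-2 and of -0.42 ± 4.26 in RPTEC/TERT1 (SD, n = 2 each), a difference of 0.59 with a standard error of 2.62. CLDN3 stood at -0.85 ± 3.67 and -1.05 ± 3.55 (SD, n = 2 each), a difference of 0.20 with a standard error of 2.50. For CLDN1 the means were 3.32 ± 0.52 and 3.01 ± 0.78 (SD, n = 2 each), and the difference was 0.31 with a standard error of 0.62. The differences of CLDN7, CLDN10, CLDN12, CLDN14 and CLDN16 were -0.07, -0.60, -0.24, -0.38 and -0.41, with standard errors of 0.43, 2.09, 0.49, 2.35 and 1.63, and the adjusted p of limma was 1 for all 8. All 8 differences were smaller than their standard errors, which does not show that the lines are alike in a claudin. With the outlier spots kept, an alternative chosen after seeing that CLDN4 and CLDN11 had such spots, 0 of 10 were called. CLDN4, as the mean of its disagreeing probes, differed by -0.01 (standard error 0.79). That mean spanned 1.45, whereas the bright probe alone went from 3.02 to 6.08. CLDN11 differed by 0.00 (standard error 4.93).

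Within a scan date the same comparison gave opposite answers. Between the arrays of replicate 1, HK-2 minus RPTEC/TERT1 was 5.91 for CLDN2, 5.31 for CLDN3, 3.55 for CLDN10, 4.40 for CLDN14 and 2.83 for CLDN16. Between those of replicate 2 it was -4.72, -4.90, -4.75, -5.16 and -3.65 for the same genes. CLDN1 had -0.61 and 1.23, CLDN12 0.28 and -0.76, and CLDN7 -0.18 and 0.03. The sign turned between the dates for all 8, with 1 array per line on each. For CLDN7 and CLDN14 each of these differences includes a spot that was not well above background. For CLDN10 neither probe was so on RPTEC/TERT1 replicate 1, and the dimmer probe was not so on HK-2 replicate 2. The dimmer probe of CLDN12 was not so on HK-2 replicate 1. Where the dim spot stood at the floor, as for CLDN14, the difference is a bound. A gene whose brighter arrays cross the labels has to turn, and 38.9% and 33.2% of all genes were brighter on the crossed pairs, so that the turn is not particular to the claudins. Leaving out 1 array turned the direction of CLDN2 (to -1.71 without HK-2 replicate 1 and to -2.42 without RPTEC/TERT1 replicate 1), of CLDN3 (-2.39 and -2.31, same arrays), of CLDN10 (1.06 without HK-2 replicate 2 and 1.89 without RPTEC/TERT1 replicate 2), of CLDN16 (1.34 and 1.08, same arrays) and of CLDN14 (1.82 without HK-2 replicate 2). The small differences of CLDN1 (-0.061 without HK-2 replicate 2 and -0.24 without RPTEC/TERT1 replicate 2), CLDN7 (0.062 without HK-2 replicate 1) and CLDN12 (0.066 without RPTEC/TERT1 replicate 2) turned as well.

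**Figure D2:**
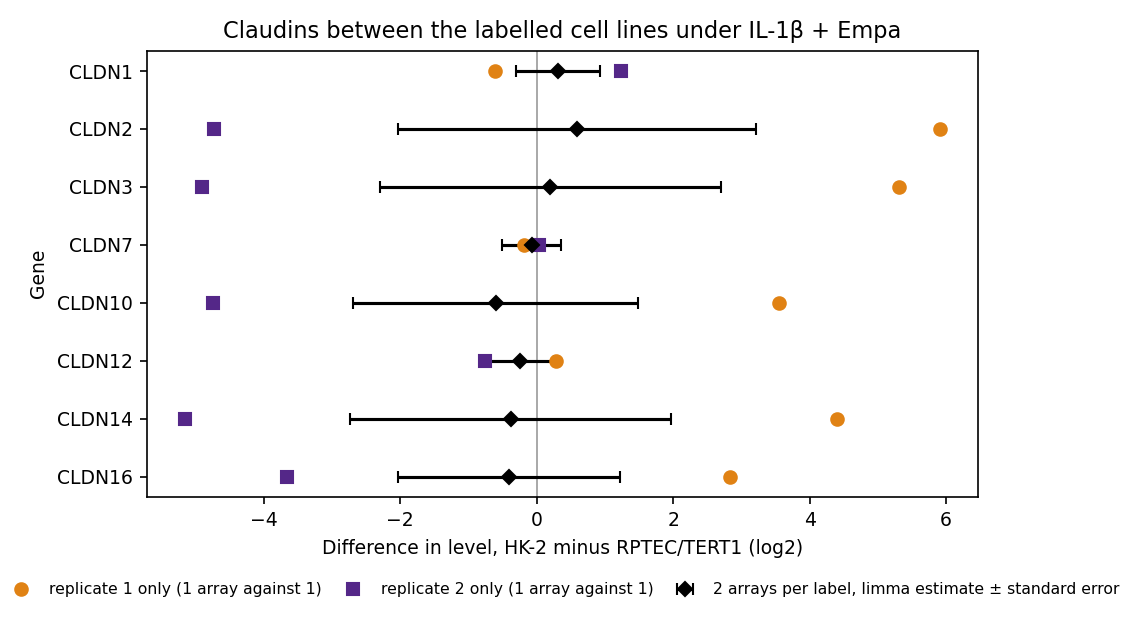
Difference in level between HK-2 and RPTEC/TERT1 (x axis, log2) for the 8 claudins tested, with the limma estimate and its standard error as black diamonds and bars, and the differences within replicate 1 (orange circles) and replicate 2 (purple squares), 1 array against 1. For CLDN2 the within-replicate values were 5.91 and -4.72 and the estimate 0.59, between them.

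The spread was set beside that of all genes. Of the 8 claudins tested, 6 had a range above 1 over the 4 arrays, 5 a range above 2 and 4 a range above 4, against 52.9%, 18.1% and 4.06% of the 16468 tested genes with a value on all arrays. The median range was 4.31 for the claudins and 1.05 for all genes. The count above 4 depended on the scaling, as CLDN2 alone (4.67) was above 4 in the deposited log2 values and CLDN2 and CLDN3 alone after normexp correction. CLDN14 passed the filter through the arrays on which it was bright, and CLDN7 and CLDN14 were well above background on 2 arrays each, so that these counts describe only the members that passed. Among genes well above background on all 4 arrays, 3 of 5 claudins had a range above 2, against 13.6% of 13778 genes, with median ranges of 3.65 and 0.97. The 6 other claudins tested had a median range of 0.92, with 2, 1 and 1 of them above 1, 2 and 4. The listed members were chosen with earlier results of these data known, so that wide ranges are not shown for claudins as a family. None of the 8 listed claudins tested separated the labels, as 0 were higher on both HK-2 arrays than on both RPTEC/TERT1 arrays and 0 were lower on both. The shares of all genes were 4.36% and 2.81%, so that 0 of 8 is close to them. Of the 6 other claudins tested, CLDN9 was lower on both HK-2 arrays by the mean of its probes, which disagreed. Its probe A_23_P351138, well above background on all 4 arrays, did not separate the labels, at -3.14, -4.57, -4.80 and -3.37. The other probe of CLDN9 was well above background on RPTEC/TERT1 replicate 1 alone. The brighter pair was RPTEC/TERT1 replicate 2 with HK-2 replicate 1 for 6 of 8 (38.9% of all genes). The 6 include CLDN12 by the mean of its probes, although its dimmer probe was brighter on both RPTEC/TERT1 arrays. For CLDN1 it was RPTEC/TERT1 replicate 1 with HK-2 replicate 2 (33.2%), and for 0 the arrays of replicate 1 (9.84%). CLDN7 ranked highest on the arrays of replicate 2 (10.8%), but was not well above background on 1 of them, and no order is read from it.

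Set against each other in pairs, HK-2 replicate 1 and HK-2 replicate 2 had a median absolute difference of 3.41 over the 8 claudins and of 0.67 over all 16468 genes. The arrays labelled RPTEC/TERT1 differed by a median of 3.98 over the claudins and of 0.79 over all genes. RPTEC/TERT1 replicate 2 differed from HK-2 replicate 1 by 0.31 and 0.22, and RPTEC/TERT1 replicate 1 from HK-2 replicate 2 by 0.14 and 0.30. The remaining pairs, both of replicate 1 or both of replicate 2, had medians of 3.19 and 4.19 over the claudins.

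**Figure D3:**
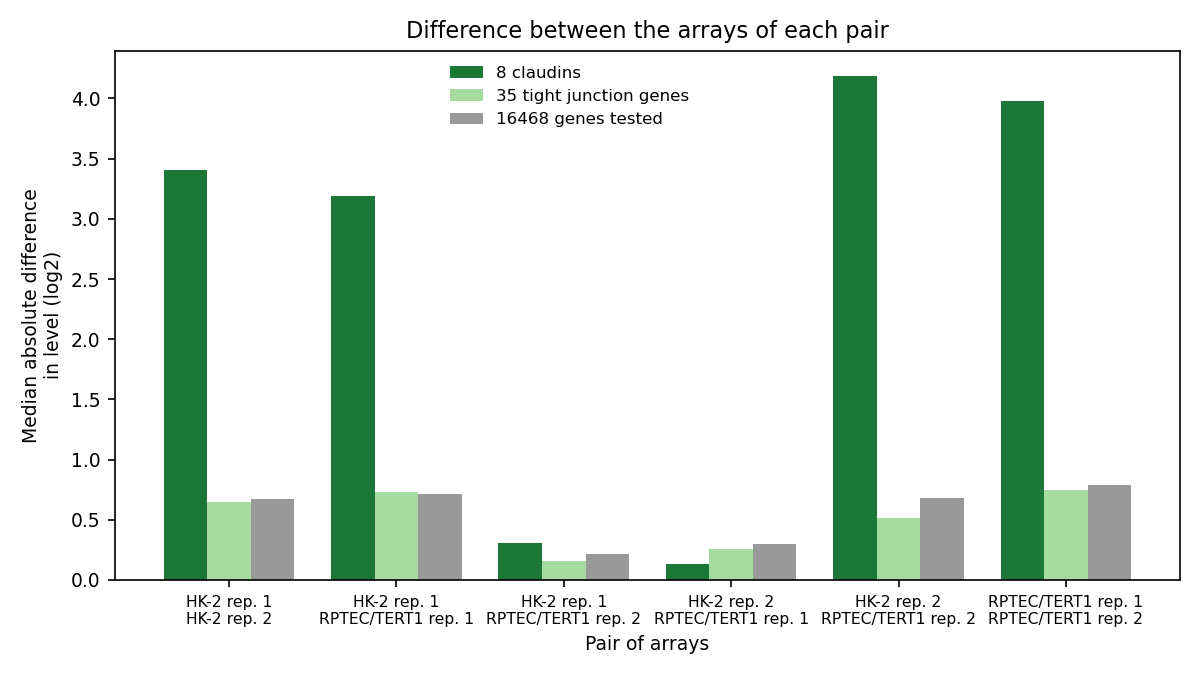
Median absolute difference in level (y axis, log2) between the arrays of each of the 6 pairs (x axis), for 8 claudins (dark green), 35 tight junction genes (light green) and 16468 genes tested (grey). The claudin bars reach 3.19 to 4.19 in 4 pairs and 0.31 and 0.14 in the third and the fourth pair from the left, which cross the labels and the dates.

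Of 14 other claudins, 13 had a probe on the array under their symbol, CLDN34 was not among the names, and 6 were tested. CLDN23 had levels of -0.34, -4.76, -5.37 and -0.50, a range of 5.04 with the same bright arrays as CLDN2. CLDN19, the partner of CLDN16 in the thick ascending limb, was well above background on every array, at 1.27, 0.89, 1.06 and 1.54, by probe A_33_P3299739, and its range was 0.65, whereas its other probe was not well above background on any array. CLDN16 had the same brighter arrays and a range of 3.65. CLDN6, CLDN9, CLDN15 and CLDN24 lay between -3.45 and -5.37 with ranges of at most 1.31, where CLDN9 is the mean of its probes. Taken singly, the probes of CLDN9 reached -3.14 on HK-2 replicate 1 and -3.34 on RPTEC/TERT1 replicate 1. CLDN5, an endothelial member, and CLDN8, CLDN17, CLDN18, CLDN20, CLDN22 and CLDN25 were not well above background on any array.

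The other genes of the tight junction had ranges near those of all genes. Of 40 tight junction genes that are no claudins, 35 were tested, 0 were called, 0 had an unadjusted p under 0.05, and 15, 5 and 1 had a range above 1, 2 and 4, beside 52.9%, 18.1% and 4.06% of all genes, with a median range of 0.90 beside 1.05. OCLN, the strand protein occludin, was at -0.24, -5.37, -5.37 and -0.55, and its range was 5.13. MARVELD2, tricellulin of the corners where cells meet, was at 0.09, -3.36, -3.41 and 0.21. Both shared their bright arrays with CLDN2 and CLDN3. JAM3, an adhesion molecule of the immunoglobulin family, was at -5.37, -2.09, -1.48 and -5.37, and PARD6G, of the polarity complex, at -5.37, -2.05, -2.21 and -5.37, with the bright arrays of CLDN11.

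The 5 tight junction genes of the highest mean level were well above background on all arrays. ILDR1, a further protein of tricellular contacts, stood at 5.68, 5.73, 6.39 and 5.49, SYMPK, which also acts in mRNA 3′ end processing, at 3.98, 3.84, 3.74 and 3.93, and AMOTL2, of the angiomotin family, at 3.38, 3.92, 3.41 and 3.39. RAB13, a small GTPase, had 2.64, 2.58, 2.44 and 2.91, and YBX3, a Y-box factor that binds ZO-1, had 1.74, 2.05, 1.80 and 2.24. Their ranges were 0.24 to 0.90. For each of these genes, the adjusted p of limma between the labels was 1. Of the 35 tested, 1 tight junction gene was higher and 1 lower on both HK-2 arrays, beside 4.36% and 2.81% of all genes.

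**Figure D4:**
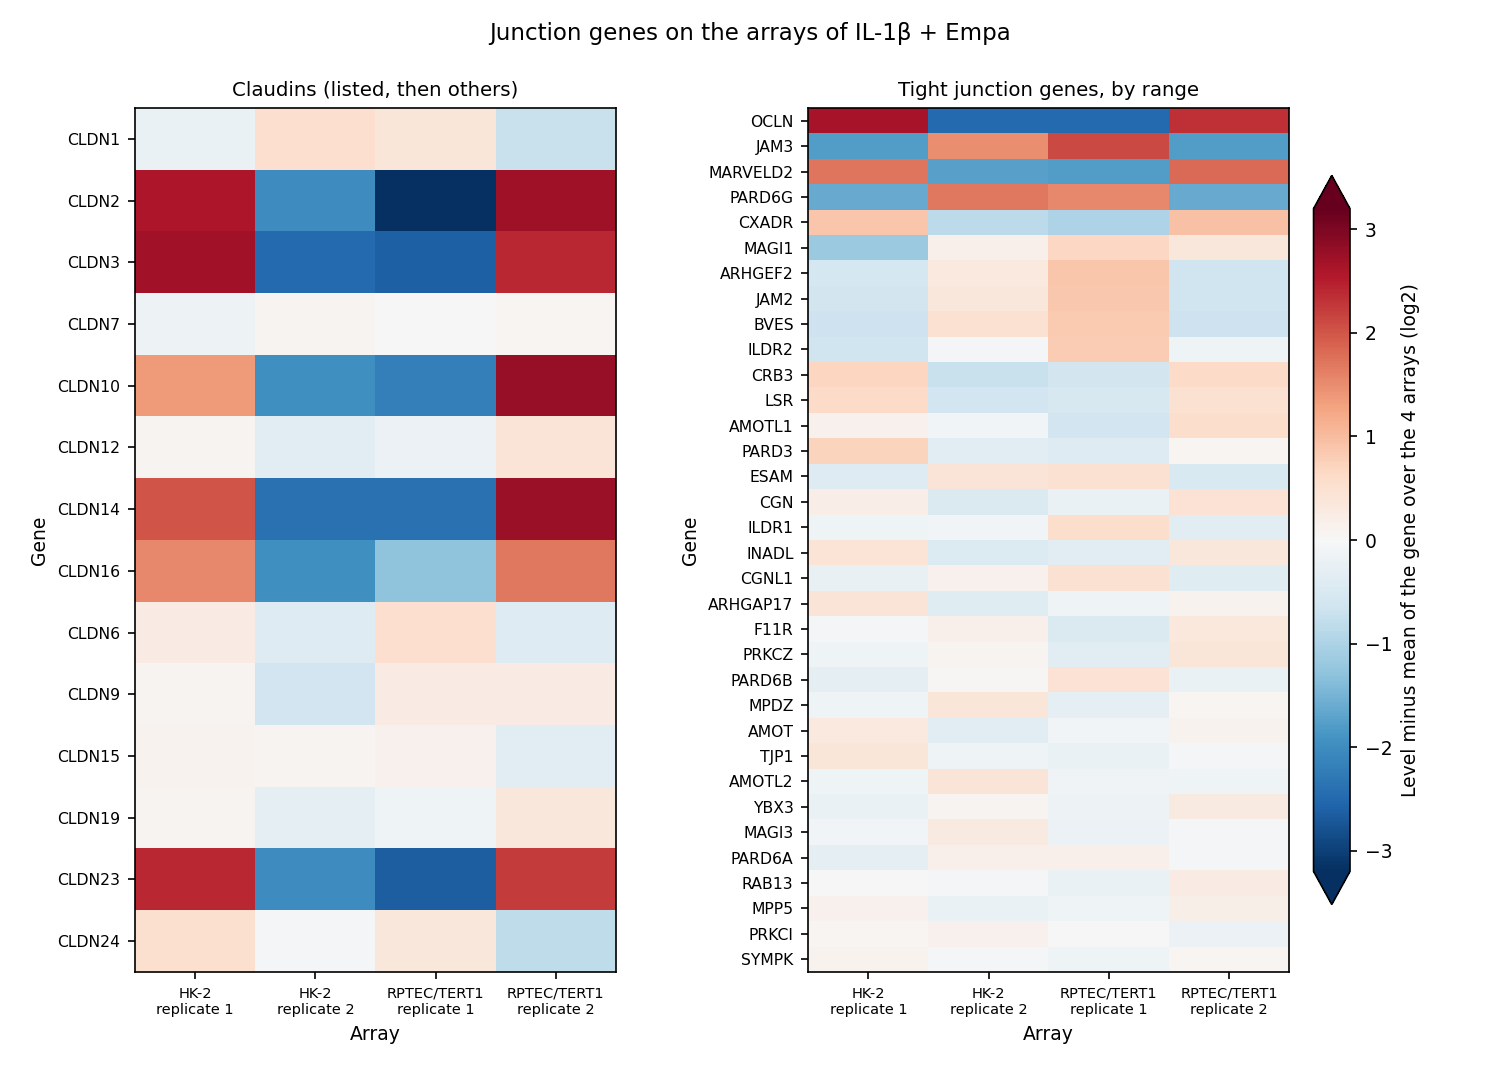
Level of each tested gene minus its own mean over the 4 arrays (colour, log2, red above and blue below the mean) for the 8 listed and 6 other claudins (left) and the tight junction genes ordered by range (right, 1 of the 35 not shown), with arrays as columns. CLDN2, CLDN3, CLDN10, CLDN14, CLDN16 and CLDN23 are red in the outer columns (HK-2 replicate 1, RPTEC/TERT1 replicate 2), as are OCLN and MARVELD2, while SYMPK is nearly white with a range of 0.24.

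For the 3 claudins with the largest range among the 8 fitted with the mean of probes, which leaves out CLDN11, the genes of the most similar pattern were sought by the root mean square distance between levels centred on each gene's own mean, over the 4 arrays and 16467 other genes. Nearest to CLDN2 were GALNT18 (distance 0.21), ATP8B1 (0.25) and ID2 (0.26), none of them at the floor on any array. GALNT18 was at 1.66, -3.01, -3.79 and 2.02 and thus kept the lower value of CLDN2 on RPTEC/TERT1 replicate 1. Nearest to CLDN3 were SIM2 (0.042), UNC5A (0.051) and NCALD (0.053), and nearest to CLDN14 were SSPN (0.11), the transcript ENST00000423781 (0.14) and EPB41L4A (0.18). These 6 were at the floor on RPTEC/TERT1 replicate 1 and HK-2 replicate 2, where a distance cannot tell genes apart, and 4 arrays allow many genes the same pattern.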

How the data were processed

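Cy3-labelled RNA of HPTCs was measured on 1-colour Agilent human arrays. The authors deposited Feature Extraction output, that is spot intensities with a background-subtracted processed signal and flags per spot. They also deposited a table of log2 values of unstated centring. It served as an alternative after the 75th percentile of each array was subtracted from it here. Medians after that step were -0.90, -2.31, -2.10 and -2.09 on HK-2 replicates 1 and 2 and RPTEC/TERT1 replicates 1 and 2. Probe positions are those of the files (GRCh37), whereas upstream sequences are from RefSeq (GRCh38.p14). No gene annotation of GRCh37 was used, so that the part of the gene a probe lies in is not given.

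Control spots and spots flagged as outliers (1.24% to 1.85% per array) were left out. Each processed signal was expressed as a fraction of its array's 75th percentile, raised to 0.0242 where lower (the least sensitive array's dimmest spot above background), and taken to log2. Repeated spots were averaged per probe, and genes were summarised as the mean of probes well above background on at least 1 array, preferring probes with a value on all arrays. Genes well above background on at least 2 arrays were tested with limma 3.58.1 in R 4.3.3 (lmFit, eBayes, two-sided, Benjamini-Hochberg, threshold 0.05). With 2 arrays against 2 an exact permutation test cannot go below 0.333, and the number of arrays limits precision. On simulated data with a spread of 0.2, limma recovered 200 of 200 genes changed by 2 among 16468 and made 15 false calls, whereas the arrays here spread more within a label.

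Named were all 10 claudins, other claudins by counts and by value where above background, the 5 tight junction genes with the highest mean and the 5 with the largest range (1 of which is not reported here), and the 3 nearest genes of the 3 claudins with the largest range. The members and the lists were chosen with earlier results of these data known. Replicate numbers, which coincide with scan dates, were tried as a block, and deviations of same-numbered arrays had a correlation of -0.810 across 16468 genes. Alternatives were normexp background correction (offset 50), the deposited log2 values, quantile normalization, other filters on dim probes, the brightest probe per gene, a stricter rule for spots above background, outlier spots kept and each array left out.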

Additional observations from a re-analysis of the deposited data

How the results depend on the processing

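Under all 12 alternatives run beside the fit given above, 0 genes, 0 claudins and 0 tight junction genes were called between the lines, with 4 to 247 genes at an unadjusted p under 0.05 and 0 claudins among them. A replicate block (number and scan date together) gave 0 calls among 16468 genes, as without it. At an unadjusted p under 0.05 it gave 5 genes, compared with 23 of the same 16468 genes without a block. With 1 array per line in each block, the block cannot change a claudin difference. The claudin differences changed sign by setting. After normexp correction they were -0.19 for CLDN1, 0.34 for CLDN12, 0.073 for CLDN16, -0.24 for CLDN2, -0.39 for CLDN3 and 1.02 for CLDN7. In the deposited log2 values they were 0.26 for CLDN12, -0.14 for CLDN3 and 0.57 for CLDN7, and with the brightest probe 0.22 for CLDN12. The cause was not tested. With 1 array left out, which leaves 1 array in a line that is assumed to vary like the others, they lay between -0.24 and 0.86 for CLDN1, -2.42 and 3.61 for CLDN2, -2.39 and 2.80 for CLDN3, -0.045 and 0.062 for CLDN7, -3.09 and 1.89 for CLDN10, -0.54 and 0.066 for CLDN12, -2.96 and 1.82 for CLDN14, and -2.16 and 1.34 for CLDN16. CLDN7 passed the filter only without HK-2 replicate 1 or RPTEC/TERT1 replicate 2, and CLDN14 only without HK-2 replicate 2 or RPTEC/TERT1 replicate 1. Their spans therefore rest on fewer fits than those of the others. The median difference of the claudins, -0.16, was 0.04 without a filter on dim probes, 0.20 with genes above background on all arrays, 0.06 with the brightest probe, and -2.31 to 1.34 with 1 array left out. Their median range, 4.31, was 2.70 in the deposited log2 values, 3.09 after normexp correction, 4.28 after quantile normalization, 4.40 with the brightest probe and 3.49 to 4.98 with 1 array left out. The range of CLDN7, 0.27, was 2.85 after normexp correction. Signal over background limits CLDN7, the dimmer probes of CLDN4, CLDN10 and CLDN12, and CLDN14 and CLDN11 on their dim arrays.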
